A study of Mus musculus with 8 samples.

Results

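The mouse miRNAs mmu-miR-320-3p, mmu-miR-484, mmu-miR-877-5p, mmu-miR-877-3p, mmu-miR-1981-5p and mmu-miR-702-3p are made without the usual cut by Drosha, and were followed through mouse embryonic stem cells that differ in their Argonaute proteins. These 6 of the 1915 mature miRNAs counted were taken by name, with earlier results of these data known, and all 6 had counts. The 8 small RNA libraries make up 4 groups with 2 libraries each. In the induced AGO1 line (AGO1dox, A and B), cells of Ago2 knockout line 1 carry an AGO1 transgene that was switched on with doxycycline at 1 µg/mL. The uninduced AGO1 line (AGO1nodox, A and B) is the same line without the drug, and the source names of its libraries point to 1 isolate (A). Both AGO1 groups were kept in puromycin at 2 µg/mL. Doxycycline was given to the induced libraries only and puromycin to the AGO1 groups only. Effects of these drugs and of the transgene therefore cannot be told apart. The Ago2 knockout group (Ago2KO) is made of lines 1 and 2, and wild type is E14 (WT, A and B). All are embryonic stem cells on the 129/Ola background, grown in 15% serum with LIF at 100 U/mL. Nothing in the labels marks A and B as cultures grown apart, so that p-values measure the spread between these libraries, which may be technical, and only the knockout group pairs separate lines.

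In the canonical pathway, Drosha with DGCR8 cuts a hairpin out of a primary transcript, Dicer removes its loop, and an Argonaute protein keeps 1 of the strands. Mirtrons bypass Drosha: a short intron is spliced out, debranched, and folds into a hairpin that Dicer can cut. miR-877, miR-1981 and miR-702 are mirtrons. miR-320 and miR-484 come from short hairpins that RNA polymerase II makes directly, with the cap of the transcript still on their 5′ end. All of these products still need Dicer and an Argonaute protein.

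The hairpins are shown because the mirtron arms sit at the edges of the introns. RefSeq (GRCm38.p6) held sequences for 5 of the 6 miRNAs. In the hairpins, written 5′ to 3′, capitals mark the mature miRNAs.
miR-877 hairpin: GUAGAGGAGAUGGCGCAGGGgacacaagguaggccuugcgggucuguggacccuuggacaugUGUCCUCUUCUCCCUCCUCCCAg
miR-1981 hairpin: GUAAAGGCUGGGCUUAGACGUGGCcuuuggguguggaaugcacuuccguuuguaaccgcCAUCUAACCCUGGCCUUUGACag
miR-702 hairpin: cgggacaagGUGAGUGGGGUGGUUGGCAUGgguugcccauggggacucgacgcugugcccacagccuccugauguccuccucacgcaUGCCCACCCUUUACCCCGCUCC
miR-484 hairpin: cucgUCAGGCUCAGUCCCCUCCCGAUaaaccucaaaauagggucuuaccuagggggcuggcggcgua
The mature miRNAs follow with the seed, bases 2 to 8, in capitals, since the seed sets most target pairing.
miR-484: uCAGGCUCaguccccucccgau
miR-877-5p: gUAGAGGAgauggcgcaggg
miR-877-3p: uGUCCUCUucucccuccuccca
miR-1981-5p: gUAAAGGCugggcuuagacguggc
miR-702-3p: uGCCCACCcuuuaccccgcucc
None of these 5 seeds recurs in another mature mouse miRNA of the RefSeq table. The 5p arms of the mirtrons begin with G and the 3p members with U.

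On GRCm38 with GENCODE vM21, the miR-877 hairpin (chromosome 17, 35960730 to 35960814, minus strand) is exactly an intron of Abcf1, which encodes an ATP-binding cassette protein of translation. The miR-1981 hairpin (chromosome 1, 184822407 to 184822488, minus strand) is exactly an intron in 6 of the 7 overlapping transcripts of Marc2, which encodes a mitochondrial reductase. The annotated miR-702 hairpin (chromosome 5, 136991433 to 136991541, plus strand) starts 9 bases before an intron of Plod3, a lysyl hydroxylase gene, and that intron runs from 136991442 to 136991543. The 5p arm of all 3 mirtrons starts at the intron's first base. The 3p arm ends 1 base before the intron end in miR-877 and 2 bases before it in miR-1981 and miR-702. The short-hairpin genes lie near starts of coding genes on the opposite strand. miR-320 (chromosome 14, 70443510 to 70443591, plus strand) overlaps no other annotated gene and begins 63 bases from a start of Polr3d, a subunit gene of RNA polymerase III. miR-484 (chromosome 16, 14159626 to 14159692, plus strand) spans the edge of an exon of Marf1 on the opposite strand. The mature miR-484 (14159630 to 14159651) lies within the adjoining Marf1 intron (14154032 to 14159673).

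**Figure D1:**
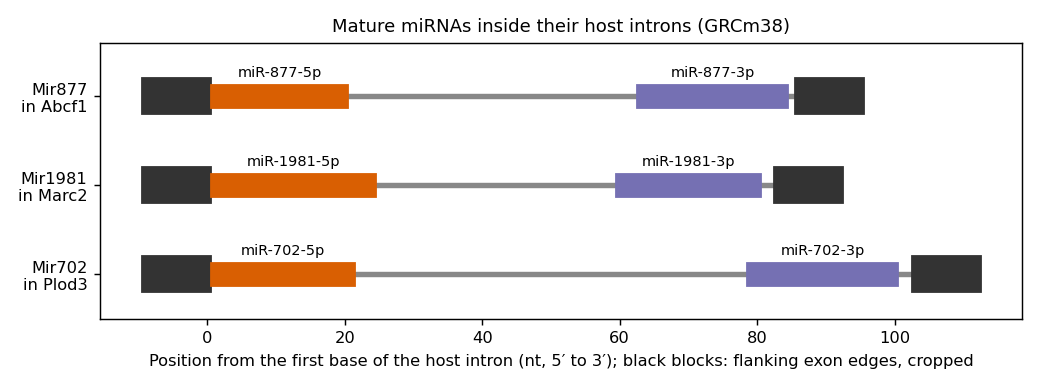
Position of the mature miRNAs in the host introns of the 3 mirtrons, in nucleotides from the first base of the intron. Orange blocks are 5p arms, violet blocks 3p arms, the grey line is the intron and black blocks are the cropped exon edges. Each 5p arm starts at the first base of its intron, and the introns are 85, 82 and 102 nucleotides long.

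Counts of mature miRNAs summed to 163467 to 1326638 per library, with the knockout lines among the shallowest. Levels below are in CPM, with library totals corrected by TMM factors, and are relative to all miRNAs of a library. In bulk RNA, fewer cells that hold a miRNA and less of it per cell cannot be told apart. A count of 0 allows up to 3 counts, or 2.57 to 2.99 CPM in the induced libraries, 3.99 and 9.92 CPM in the uninduced, 7.48 and 15.1 CPM in knockout lines 1 and 2, and 2.70 to 3.56 CPM in wild type. These limits and all intervals cover counting error only. All 7 embryonic stem cell markers had counts, at 181249 to 243379 CPM in sum, most of it miR-295-3p (mean 150987 CPM). Singly they did not move together. Their log2 fold changes in the knockout against wild type ran from -1.09 (miR-291a-3p) to 2.45 (miR-302d-3p). The summed levels of the fibroblast markers, and those of the blood markers, did not overlap between any of the 4 groups. The 3 fibroblast markers, all with counts, summed to 1848 to 2020 CPM in the induced line, 318 to 370 CPM in the uninduced line, 407 to 447 CPM in the knockout and 3191 to 3746 CPM in wild type. Nearly all of this sum was miR-143-3p. The other fibroblast markers did not share its order: miR-145a-5p had 33.9 to 39.3 CPM in the induced line, 29.3 to 33.1 CPM in the uninduced line, 42.4 to 45.3 CPM in the knockout and 20.2 to 26.1 CPM in wild type, and miR-199a-3p overlapped between knockout and wild type. The 4 blood markers summed to 2881 to 3115 CPM in the induced line, 4643 to 5254 CPM in the uninduced line, 3139 to 4026 CPM in the knockout and 1427 to 1570 CPM in wild type, mostly as miR-150-5p and with miR-223-3p and miR-451a at 0 in each library. Singly, the counted blood markers did not part the groups as the sum did. miR-150-5p overlapped between the induced line (2710 and 2974 CPM) and knockout lines 1 and 2 (3685 and 2596 CPM). miR-142a-3p was highest in the knockout, at 342 and 543 CPM, against 277 and 241 CPM in uninduced A and B. Both neural markers had counts (323 to 540 CPM in sum), muscle had 1 of 3 (at most 6.61 CPM), and miR-122-5p of liver was at 0. Their part in the results below was not tested.

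The miRNAs fell into abundant and rare ones. miR-484 averaged 1354 CPM over the 8 libraries, rank 58 of 1915, and miR-320-3p 334 CPM, rank 132. The mirtron arms were rarer, with means of 32.0 CPM for miR-1981-5p, 23.3 CPM for miR-877-3p, 15.0 CPM for miR-877-5p and 1.56 CPM for miR-702-3p. Together the 6 miRNAs took 0.172 and 0.232% of the counts in induced A and B, 0.132 and 0.182% in uninduced A and B, 0.138 and 0.168% in the knockout (lines 1 and 2), and 0.195 and 0.167% in wild type A and B. miR-484 alone made up 69.6 to 83.4% of that share, so that the sum mostly follows that miRNA.

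**Figure D2:**
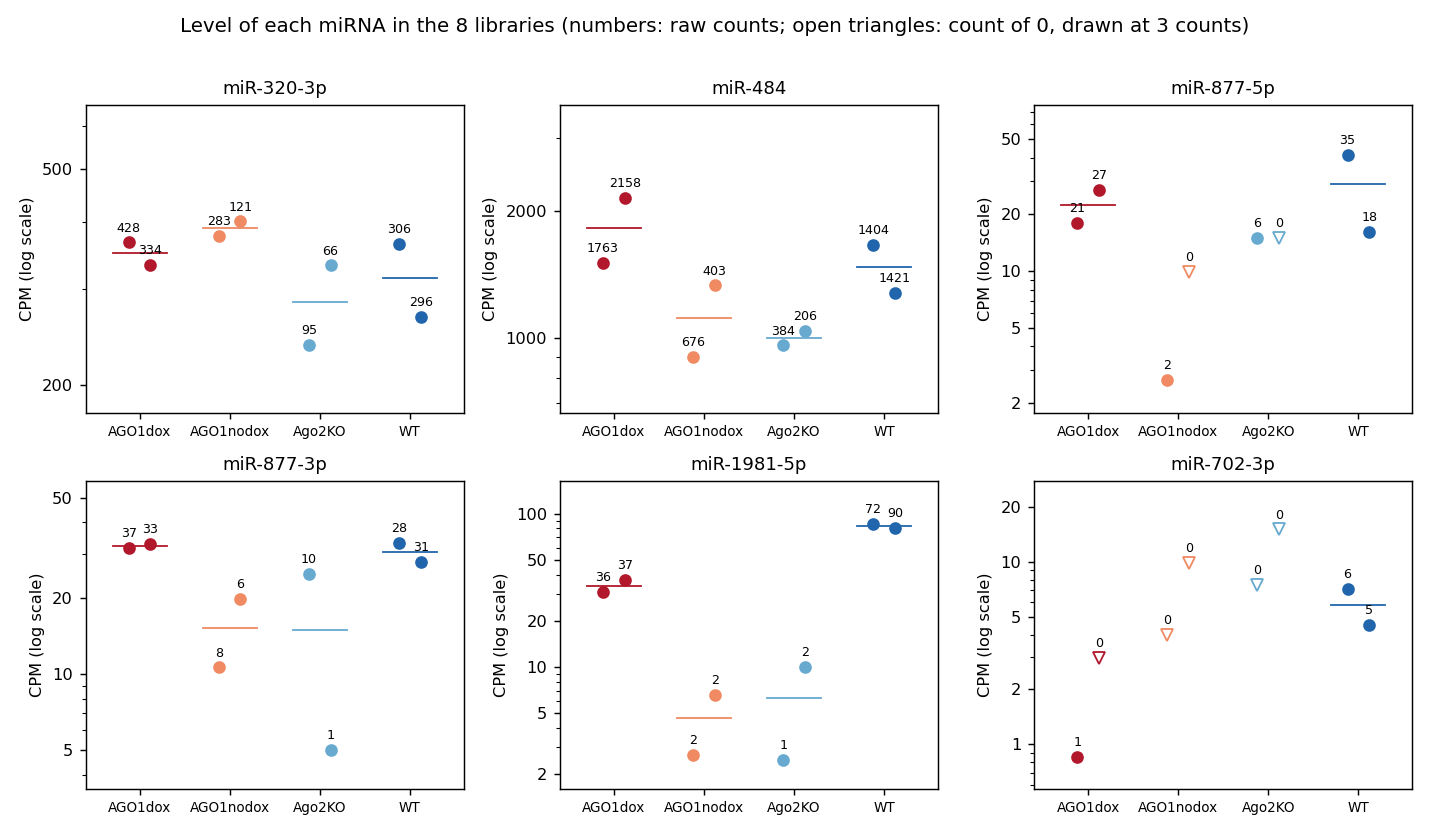
Level of each of the 6 miRNAs in the 8 libraries, in CPM on a log axis, by group, with A or line 1 left and B or line 2 right. Filled points are libraries with a count, the number above each is the raw count, open triangles mark a count of 0 at the level that 3 counts would give, and lines are means of groups with counts in both libraries. miR-1981-5p lies apart in WT, in AGO1dox and in the other, overlapping groups, with 30.8 and 36.9 CPM in AGO1dox and at most 10.1 CPM in AGO1nodox and Ago2KO, while the miR-320-3p values of all 8 libraries lie between 237 and 400.1 CPM.

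miR-1981-5p, the mirtron arm from Marc2, was called in 5 of the 6 comparisons, the most of the 6 miRNAs. In these 5 comparisons, which share groups, 28.8 to 59.2% of all tested miRNAs were called. Its raw counts were 36 and 37 in induced A and B, 2 and 2 in uninduced A and B, and 1 and 2 in the knockout (lines 1 and 2), with 72 and 90 in wild type A and B. In CPM these are 30.8 and 36.9 in the induced line, 2.66 and 6.61 in the uninduced line, 2.49 and 10.1 in the knockout lines, and 85.4 and 81.0 in wild type. Every wild type library lay above every induced one, and every induced library above all 4 uninduced and knockout ones. The uninduced and knockout values overlapped, and rest on 4 and 3 counts. Of the fibroblast markers, miR-143-3p stands in the same order (wild type, induced, others), with a log2 fold change of -3.29 in knockout against wild type. The other listed ones, miR-145a-5p and miR-199a-3p, do not, at 0.90 and 0.33. Among the embryonic stem cell markers, miR-291a-3p stands in this order too, at -1.09, and the other listed ones do not. It had 2587 and 2538 CPM in induced A and B and 3824 and 3107 CPM in wild type A and B. Uninduced A and B had 1766 and 1266 CPM, and knockout lines 1 and 2 had 1916 and 1338 CPM. The part of any cell type in the miR-1981-5p result was not tested.

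The tests used edgeR's quasi-likelihood F test over all 475 miRNAs that passed the filter on low counts, with Benjamini-Hochberg adjustment, and a call is an adjusted p under 0.05. Against wild type, miR-1981-5p fell in the knockout lines with an estimate of -3.99 ± 0.59 in log2 (SE; edgeR adjusted p = 0.000401). The pooled counts were 3 against 162, a ratio of 16.6 in favour of wild type (95% exact counting interval 5.57 to 81.2). It also fell in the uninduced AGO1 line against wild type, where the log2 fold change was -4.37 ± 0.54 (edgeR adjusted p = 9.98e-05), with a ratio of pooled counts of 21.8 in favour of wild type (8.36 to 81.1). Both calls were kept with each library left out in turn.

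With doxycycline, miR-1981-5p rose: the log2 fold change of the induced against the uninduced line came to 3.07 ± 0.59 (edgeR adjusted p = 0.00375), or 8.85-fold in pooled counts of 73 against 4 (3.31 to 33.3). Against the knockout lines the induced line was also higher, at 2.69 ± 0.65 (edgeR adjusted p = 0.0116). It was still lower than wild type, at -1.30 ± 0.34 (edgeR adjusted p = 0.0135), or 2.47-fold lower in pooled counts (1.86 to 3.30). The call against the uninduced line was lost without uninduced A (2.44, edgeR adjusted p = 0.0724), and that against the knockout without knockout line 1 (1.76, 0.133) or induced B (2.52, 0.0569). The call against wild type was lost without any 1 of its 4 libraries, namely induced A (-1.02, 0.202), induced B (-1.30, 0.112), wild type A (-1.08, 0.105) or wild type B (-1.34, 0.0559), and by DESeq2 (0.103). All 3 were lost with every library thinned to the smallest, against the uninduced line (2.24, edgeR adjusted p = 0.189), the knockout (1.88, 0.209) and wild type (-1.47, 0.145).

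The other arm of this hairpin, miR-1981-3p, was below the filter and not tested. It had 7 and 4 counts in induced A and B, 0 in all 4 uninduced and knockout libraries, and 7 and 11 in wild type A and B. With a group at 0 set to 3 counts in total, it was 1.78-fold higher in the induced than in the uninduced line and 1.84-fold lower in the knockout than in wild type. With the 0 as counted, the exact 95% counting intervals start lower, at 1.22-fold and 1.35-fold. The 5p arm took 86.9% of the counts of the hairpin in the induced line (95% Clopper-Pearson interval 77.8 to 93.3%) and 90.0% in wild type (84.7 to 94.0%), intervals that overlap.

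Both arms of miR-877, the Abcf1 mirtron, were counted in each group. miR-877-5p had 21 and 27 counts in induced A and B, 2 and 0 in uninduced A and B, and 6 and 0 in the knockout (lines 1 and 2), with 35 and 18 in wild type A and B. Where counted, these correspond to 18.0 and 26.9 CPM in the induced libraries, 2.66 CPM in uninduced A, 15.0 CPM in knockout line 1, and 41.5 and 16.2 CPM in wild type. The induced and wild type ranges overlapped, and both uninduced libraries lay below them. The 0 of knockout line 2 allows up to 15.1 CPM, just under wild type B.

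miR-877-5p rose with doxycycline with an estimate of 3.46 ± 1.06 in log2 (edgeR adjusted p = 0.0348), and the pooled counts of 48 against 2 give 11.6-fold (95% counting interval 3.05 to 98.9). The call was lost without uninduced A (edgeR adjusted p = 0.114), uninduced B (2.84, 0.110) or induced B (3.16, 0.127), and by DESeq2 (adjusted p = 0.0615); without uninduced A the fold change was 7.03, against a single library at 0. Against wild type, the uninduced line was lower, at -3.79 ± 1.03 (edgeR adjusted p = 0.0100), though not once wild type A was left out (-2.86, 0.0738). The knockout against wild type was not called, at -1.52 ± 0.86 (edgeR adjusted p = 0.151). Nor were the induced line against the knockout (1.19 ± 0.87, edgeR adjusted p = 0.332) or against wild type (-0.33 ± 0.58, edgeR adjusted p = 0.678). Without knockout line 1 the knockout group is a single library at 0. The calls then came to -7.42 for knockout against wild type (edgeR adjusted p = 0.0127) and 7.13 for the induced line against the knockout (0.0341).

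miR-877-3p, the other arm, had 31.6 and 32.9 CPM in induced A and B, 10.6 and 19.8 CPM in uninduced A and B, 24.9 and 5.03 CPM in knockout lines 1 and 2 (10 and 1 counts), and 33.2 and 27.9 CPM in wild type A and B. The uninduced and knockout libraries all lay below the induced and wild type ones. No comparison was called for this arm: the induced against the uninduced line gave 1.22 ± 0.52 (edgeR adjusted p = 0.107), the uninduced line against wild type -1.14 ± 0.53 (edgeR adjusted p = 0.0869) and the knockout against wild type -0.78 ± 0.56 (edgeR adjusted p = 0.255). The first of these was called with only those groups in the fit (edgeR adjusted p = 0.0363), and so was the second (0.0454). Both were also called without knockout line 1 or 2. In all of these fits the spread comes from the A and B pairs alone, which may be technical. The 5p share of the miR-877 counts was 40.7% in the induced line (95% Clopper-Pearson interval 31.7 to 50.1%), 12.5% in the uninduced line (1.55 to 38.3%), 35.3% in the knockout (14.2 to 61.7%) and 47.3% in wild type (37.8 to 57.0%), from 118, 16, 17 and 112 counts of both arms. The interval of the uninduced line overlapped those of the induced line and the knockout, and reached 38.3% against a lower bound of 37.8% in wild type.

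miR-702-3p, from Plod3, was the rarest, with 12 counts in the 8 libraries, and was not tested. It had 1 and 0 counts in induced A and B, 0 in both uninduced libraries, 0 in both knockout lines, and 6 and 5 in wild type A and B. Its wild type level of 7.12 and 4.50 CPM is below the 7.48 and 15.1 CPM that a count of 0 allows in knockout lines 1 and 2, so a fall to 0 was not detectable at that depth in either line. For the deeper uninduced line, pooled counts of 0 against 11 in wild type give a fall whose exact 95% counting interval starts at 1.35-fold. In the induced line, the pooled count of 1 against 11 in wild type gives a ratio of 12.2 in favour of wild type (95% counting interval 1.78 to 526). The opposite arm, miR-702-5p, had 12 and 12 counts in induced A and B, 1 and 0 in uninduced A and B, 0 in both knockout lines, and 17 and 11 in wild type A and B. The induced and wild type levels of that arm overlapped, at 10.3 and 11.96 CPM and at 20.2 and 9.89 CPM. Its ratio of induced to uninduced counts was 11.6 (24 against 1, interval 1.90 to 479), and in the knockout it was 2.86-fold lower than in wild type, with the knockout set to 3 counts in total. With the 0 as counted, the exact 95% counting interval of that fall starts at 2.18-fold. The 3p arm held 1 of the 25 counts of the hairpin in the induced line (Clopper-Pearson interval of the share 0.101 to 20.4%) and 11 of 39 in wild type (15.0 to 44.9%), with overlapping intervals.

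miR-484, the most abundant of the 6, had 1508 and 2151 CPM in induced A and B, 899.9 and 1333 CPM in uninduced A and B, 958 and 1036 CPM in knockout lines 1 and 2, and 1666 and 1278 CPM in wild type A and B. Means were 1829 ± 454 CPM in the induced line, 1116 ± 306 CPM in the uninduced line, 997 ± 55.4 CPM in the knockout and 1472 ± 274 CPM in wild type (SD, n = 2 each). The induced libraries lay above all uninduced and knockout libraries, and the knockout libraries below wild type, while the uninduced line overlapped both wild type and the knockout. The rise in the induced line against the knockout was called (0.88 ± 0.26 in log2, edgeR adjusted p = 0.0265). That call was lost without induced B (0.56, edgeR adjusted p = 0.262), without TMM factors (0.49, 0.144) with only those groups in the fit (0.82, 0.0712) and with every library thinned to the depth of the smallest (0.82, 0.0502).

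Other differences of miR-484 stood near the threshold. The induced against the uninduced line gave 0.72 ± 0.25 (edgeR adjusted p = 0.0569), which was called without the filter on low counts (0.81, 0.0121) and with only those groups in the fit (0.70, 0.0102). It was also called without knockout line 1 (0.75) or 2 (0.73). Without a knockout line, or with only those groups, the spread comes from the A and B pairs alone, which may be technical. The knockout against wild type gave -0.56 ± 0.25 (edgeR adjusted p = 0.0814), which was called without the filter (-0.65, 0.0391). It was also called without knockout line 2 (-0.59), where line 1 is the only knockout library. The uninduced line against wild type gave -0.40 ± 0.25 (edgeR adjusted p = 0.186), the induced line against wild type 0.31 ± 0.25 (edgeR adjusted p = 0.338), and the uninduced line against the knockout 0.16 ± 0.26 (edgeR adjusted p = 0.810).

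miR-320-3p, the other short-hairpin product, showed no call in any of the 6 comparisons. Its levels were 366 and 333 CPM in induced A and B, 377 and 400.1 CPM in uninduced A and B, 237 and 332 CPM in knockout lines 1 and 2, and 363 and 266 CPM in wild type A and B. The uninduced line was highest, and its libraries did not overlap those of any other group. The largest log2 fold change was 0.46 ± 0.26, for the uninduced line against the knockout (edgeR adjusted p = 0.413). The values were -0.16 ± 0.26 for the knockout against wild type (edgeR adjusted p = 0.605; 0.16 without TMM factors) and -0.15 ± 0.25 for the induced against the uninduced line (edgeR adjusted p = 0.680). Its 5p arm had 0 to 7 counts per library, so that 97.6 to 100% of the counts of the hairpin were 3p.

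The ratio of miR-484 to miR-320-3p counts within a library needs no scaling between libraries. It was 4.12 and 6.46 in induced A and B, 2.39 and 3.33 in uninduced A and B, 4.04 and 3.12 in the knockout (lines 1 and 2), and 4.59 and 4.80 in wild type A and B. The lowest value, of uninduced A, had a 95% counting interval of 2.08 to 2.75, and the highest, of induced B, one of 5.76 to 7.27. The interval of induced A, 3.70 to 4.59, does not reach that of induced B, while those of uninduced A and B (2.71 to 4.12 in B) overlap.

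**Figure D3:**
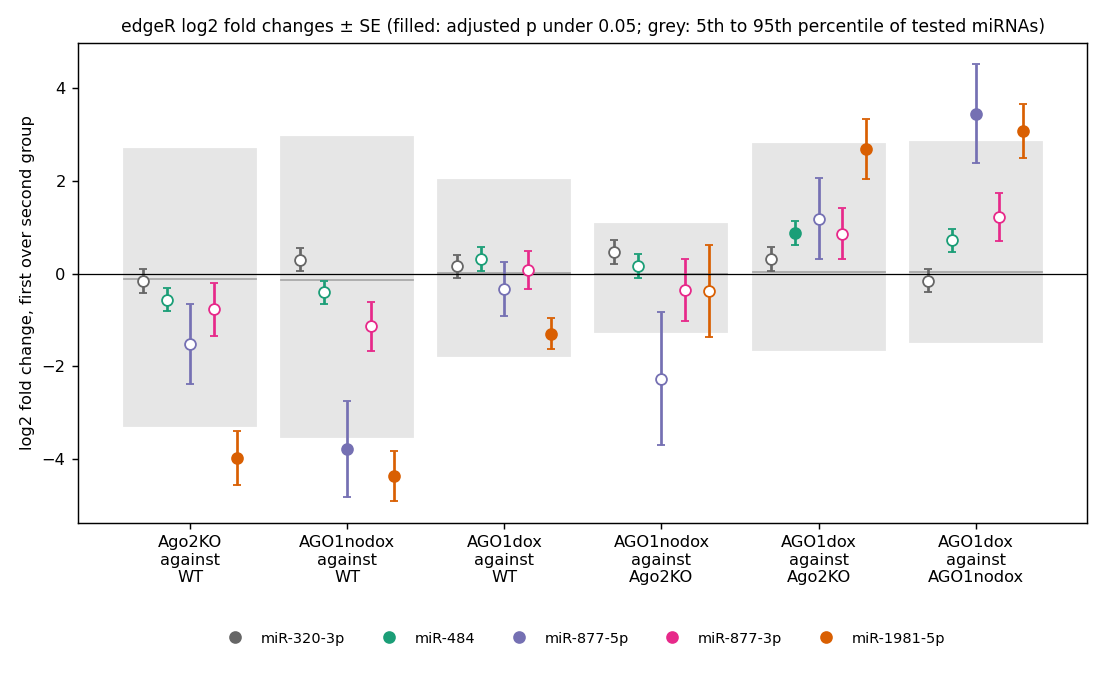
log2 fold changes with SE of the 5 tested miRNAs in the 6 comparisons by edgeR, first group over second. Filled points have an adjusted p under 0.05, open points do not; grey boxes span the 5th to the 95th percentile of all 475 tested miRNAs, with their median as a line. miR-1981-5p is at -3.99 and -4.37 in Ago2KO and AGO1nodox against WT and at 3.07 in AGO1dox against AGO1nodox, and miR-320-3p stays between -0.16 and 0.46.

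Counted over the comparisons, 5 of the 6 miRNAs could be tested, and miR-1981-5p and both arms of miR-877 passed the filter mainly through the induced and wild type libraries, where they are high. Their calls are therefore given as a description and not as support for the set. In the knockout against wild type 1 of 5 was lower and 0 higher, where 32.2% of all tested miRNAs were called lower and 25.5% higher (57.7% either way). In the uninduced line against wild type 2 of 5 were lower and 0 higher, beside 33.3% and 25.9% of all tested (59.2% either way). In the induced against the uninduced line 2 of 5 were higher and 0 lower, beside 21.1% and 7.79% (28.8% either way). In the induced line against the knockout 2 of 5 were higher and 0 lower, beside 19.2% and 10.7% (29.9% either way). In the induced line against wild type 1 of 5 was lower and 0 higher, beside 19.8% and 19.2% (38.9% either way). In the uninduced line against the knockout 0 of 5 were called, beside 0.00% by edgeR, where 72 of all tested miRNAs and 0 of the 5 had an unadjusted p under 0.05, and DESeq2 called 15. Since calls were common among all miRNAs, these shares do not set the 5 apart, and comparisons that share a group are not independent.

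The median log2 fold change of the 5 was -0.78 in the knockout against wild type (-0.12 over all tested), -1.14 in the uninduced line against wild type (-0.14), 1.22 in the induced against the uninduced line (0.033), 0.88 in the induced line against the knockout (0.026), 0.084 in the induced line against wild type (0.0054) and -0.36 in the uninduced line against the knockout (-0.010). The filter limits these medians as it does the calls, since miR-1981-5p and both arms of miR-877 passed it mainly through the induced and wild type libraries. They are a description and show no shift of the set. The AGO1 line was made from knockout line 1. With that line alone, the knockout group is a single library with 1 count of miR-1981-5p. The log2 fold change of miR-1981-5p was then 3.66 for the induced line and 0.57 for the uninduced line. Both knockout lines together gave 2.69 (edgeR adjusted p = 0.0116) and -0.38 (edgeR adjusted p = 0.912).

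Other miRNAs of unusual origin were listed by name: 18 mature forms, of which 15 had any count and 4 were tested. miR-1983, a tRNA-related miRNA, had the largest fold changes of these 4. Its mature sequence, with the seed in capitals, is shown because it shows the same order of wild type, induced and other libraries as the mirtron miR-1981-5p.
miR-1983: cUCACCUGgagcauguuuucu
It had 595 and 534 CPM in induced A and B, 55.9 and 43.0 CPM in uninduced A and B, 79.8 and 85.5 CPM in knockout lines 1 and 2, and 813 and 609.9 CPM in wild type A and B. The miRNA fell in the knockout against wild type (-3.11 ± 0.27, edgeR adjusted p = 1.04e-05) and in the uninduced line against wild type (-3.81 ± 0.27, edgeR adjusted p = 2.86e-06). It rose in the induced line against the uninduced line (3.47 ± 0.27, edgeR adjusted p = 8.59e-06) and against the knockout (2.78 ± 0.27, edgeR adjusted p = 3.2e-05). These 4 calls were kept with each library left out, and the induced line against wild type was not called (-0.33 ± 0.23, edgeR adjusted p = 0.260). Reads from tRNA gene copies could be counted here, since how reads with several matches were treated is not given in the sources used here.

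**Figure D4:**
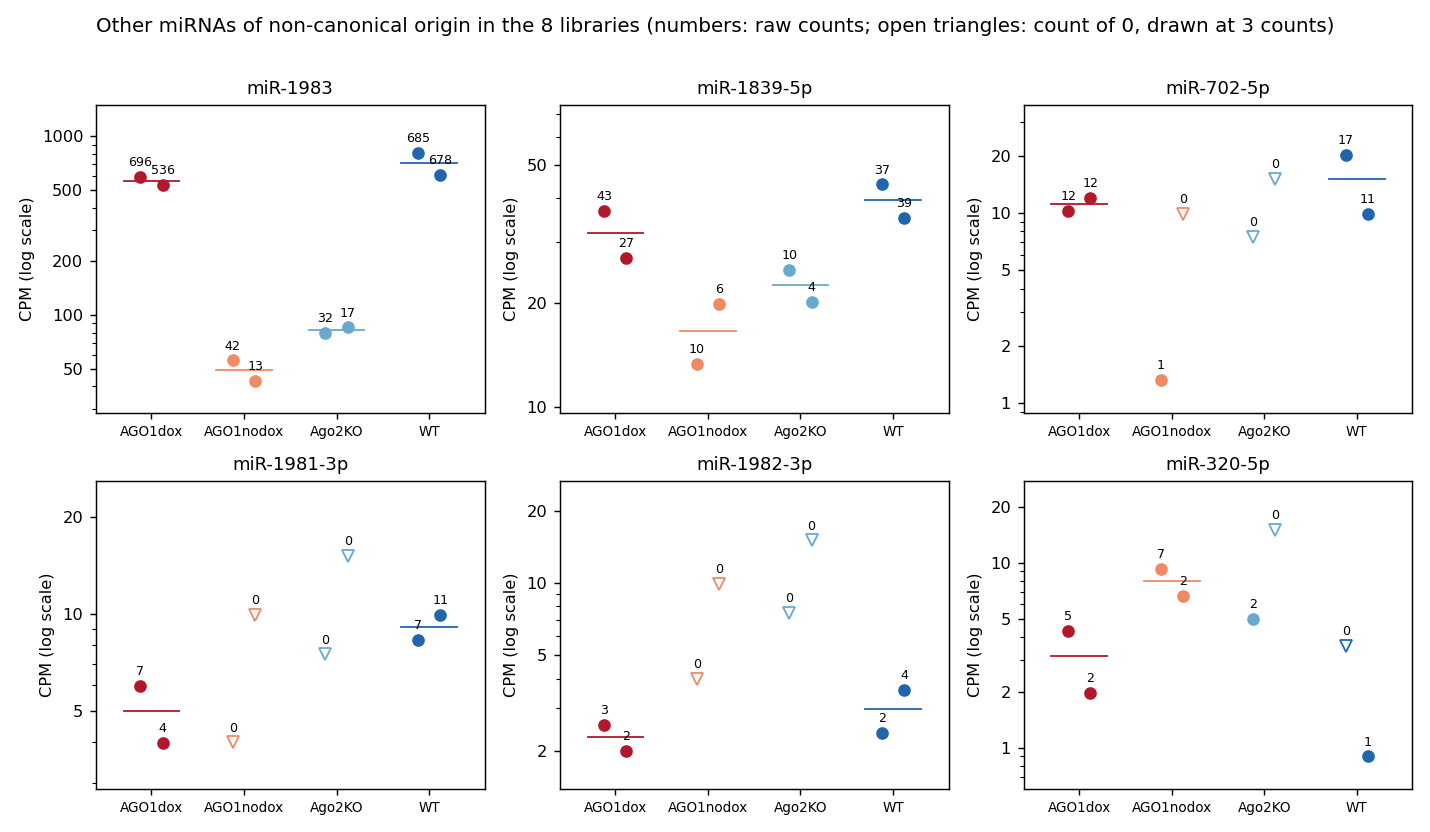
Level of 6 other miRNAs of non-canonical origin in the 8 libraries, in CPM on a log axis, drawn as in the plot of the 6 main miRNAs (numbers are raw counts, open triangles a count of 0 at the level of 3 counts, lines group means). miR-1983 lies at 534 to 595 CPM in AGO1dox, 43.0 to 85.5 CPM in AGO1nodox and Ago2KO, and 609.9 to 813 CPM in WT.

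miR-1839-5p, from a small nucleolar RNA, had 36.8 and 26.9 CPM in induced A and B, 13.3 and 19.8 CPM in uninduced A and B, 24.9 and 20.1 CPM in knockout lines 1 and 2, and 43.9 and 35.1 CPM in wild type A and B. It was lower in the uninduced line than in wild type (-1.33 ± 0.43, edgeR adjusted p = 0.0215). That call did not survive leaving out wild type A (-1.02, 0.129), uninduced A (-1.05, 0.203), uninduced B (-1.34, 0.0632), induced A (-1.22, 0.0615) or induced B (-1.20, 0.0572), and by DESeq2 (0.140). Its other comparisons were not called, with adjusted p of 0.103 to 0.625 by edgeR. The mirtron arm miR-1982-3p of Oaz1 had 3 and 2 counts in induced A and B, 0 in all uninduced and knockout libraries, and 2 and 4 in wild type A and B, too few to place the groups. miR-1224-5p had 4 counts in all, and miR-1224-3p and miR-1982-5p had none.

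Of miRNAs whose maturation needs slicing by AGO2, miR-451a was at 0 in each library. The rows miR-486a-5p and miR-486b-5p, which may share reads and so are not taken as separate observations, were tested and not called in any of the 6 comparisons. miR-486a-5p had 51 and 36 counts in induced A and B, 42 and 14 in uninduced A and B, and 9 and 14 in the knockout (lines 1 and 2), with 35 and 72 in wild type A and B. For miR-486b-5p the counts were 52 and 41 in induced A and B. The log2 fold changes in the knockout against wild type were -0.38 ± 0.50 for miR-486a-5p (edgeR adjusted p = 0.534) and 0.16 ± 0.63 for miR-486b-5p (edgeR adjusted p = 0.833). The opposite arm miR-486a-3p was below the filter and not tested. It had 13 and 8 counts in induced A and B, and 4 and 0 in uninduced A and B. Knockout lines 1 and 2 had 0 and 4, and both wild type libraries 0. miR-486b-3p had 1 count in all.

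The miRNAs whose levels run most alike were found by Pearson's r of log2 CPM over the 8 libraries among 381 others with a mean of at least 20 CPM. Since the libraries form 4 groups and share depth and scaling, r is a description. For miR-1981-5p they were miR-3078-5p (r = 0.985), miR-421-3p (0.971) and let-7a-5p (0.969). miR-3078-5p had 70.1 and 51.8 CPM in induced A and B, 9.32 and 13.2 CPM in uninduced A and B, 9.98 and 25.2 CPM in knockout lines 1 and 2, and 109 and 96.2 CPM in wild type A and B. let-7a-5p had 147 and 134 CPM in induced A and B, 47.9 and 52.9 CPM in uninduced A and B, 42.4 and 50.3 CPM in knockout lines 1 and 2, and 246 and 177 CPM in wild type A and B. Both show the order of miR-1981-5p, with wild type highest, the induced line next, and the other groups low.

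For miR-484 the most alike were miR-291a-5p (r = 0.954), of the main miRNA cluster of embryonic stem cells, miR-744-5p (0.928) and miR-323-5p (0.868). For miR-877-3p they were miR-1197-3p (0.931), miR-668-3p (0.909) and miR-370-3p (0.904), and for miR-320-3p miR-712-5p (0.892), miR-96-5p (0.887) and miR-129-2-3p (0.781). Among those of the 6 with a mean of at least 20 CPM, which leaves out miR-877-5p and miR-702-3p, r was 0.726 between miR-484 and miR-1981-5p. It was 0.673 between miR-484 and miR-877-3p, and 0.570 between miR-877-3p and miR-1981-5p. Between miR-320-3p and miR-484, miR-877-3p and miR-1981-5p it was 0.272, -0.166 and 0.0099.

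**Figure D5:**
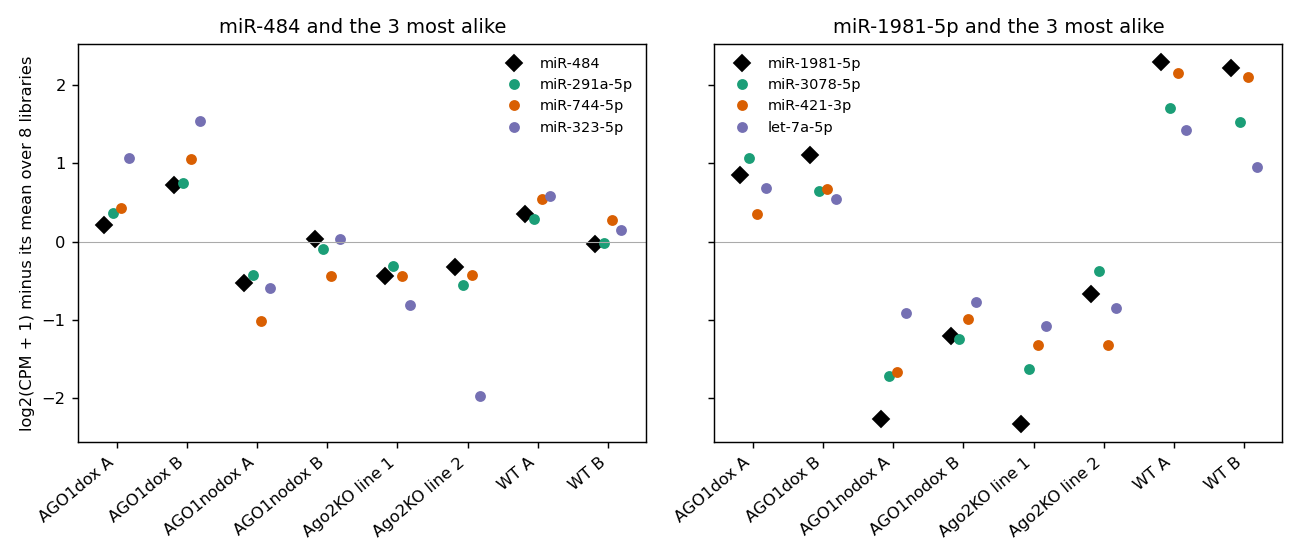
Levels of miR-484 (left) and miR-1981-5p (right) with the 3 miRNAs most alike in pattern, as log2(CPM + 1) minus the mean of each miRNA over the 8 libraries. Black diamonds are miR-484 and miR-1981-5p, coloured circles the others. The right-hand miRNAs, with r of 0.969 to 0.985, are above their mean in AGO1dox and WT and below it in AGO1nodox and Ago2KO.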

How the data were processed

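The authors deposited 1 table of raw counts per mature miRNA, whole numbers that were not normalized. Bowtie and mm10 are named in the submitters' processing notes. Per the labels' protocols, TruSeq small RNA libraries started from 1 µg of total RNA. How reads were trimmed and how multiply matching ones were counted is not given in the sources. The file has 2 header lines that disagree for 1 wild type library, and names follow the upper one.

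Of 1915 miRNAs, 901 had no count and 475 passed filterByExpr (99.9% of counts). edgeR 4.0.16 (R 4.3.3) fitted 4 groups in 1 quasi-likelihood model with TMM factors (0.881 to 1.22), which leaves 4 residual degrees of freedom, and tested 6 comparisons (2-sided F tests), each adjusted by Benjamini-Hochberg over the 475. SE (approximate) is the size of the log2 fold change over the root of F. CPM use library totals times TMM factors. The script was tested on simulated data. Alternatives were the DESeq2 1.42.0 Wald test, DESeq2 size factors in edgeR, no TMM factors, no filter, a mean of at least 20 CPM, only the compared groups in the fit, each library left out, a replicate block and, chosen after seeing the data, thinning to the smallest library.

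All 6 miRNAs are named, and for each with a mean of at least 20 CPM the 3 most alike by r (prior count 2). The miRNAs and lists were chosen with earlier results of these data known. Other names (miR-1983, miR-1839-5p and single listed miRNAs) come from the list of other non-canonical miRNAs. Abundances are relative: a change of all miRNAs together would not appear.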

Additional observations from a re-analysis of the deposited data

How the results depend on the processing

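Results are fold changes of the 5 tested miRNAs, miR-1983 and miR-1839-5p in 6 comparisons, and the number of the 5 called. Outside the fits that leave out a library, 283 fold changes kept direction and side of the threshold, 9 lost and 5 gained a call, and 6 changed sign, all among uncalled ones. These were miR-320-3p in knockout against wild type without TMM factors (0.16), with only those groups (0.014) and thinned (0.053) and in the induced line against the knockout without TMM factors (-0.082), miR-484 in the uninduced line against the knockout without TMM factors (-0.024), and miR-1983 in the induced line against wild type thinned (0.031). Thinning to the smallest library was chosen after seeing the data; both arms of miR-877 then fell below the filter, as miR-877-5p did at a mean of at least 20 CPM, and got no value. Other causes were not tested.

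The number called in induced against uninduced, 2, became 1 with DESeq2 or at a mean of 20 CPM, 3 without the filter, 4 with only those groups and 0 thinned. In the induced line against the knockout, 2 became 1 without TMM factors or with only those groups and 0 thinned. In the uninduced line against wild type, 2 became 1 at a mean of 20 CPM or thinned and 3 with only those groups; in the induced line against wild type, 1 became 0 with DESeq2 or thinned; in knockout against wild type, 1 became 2 without the filter. With each library left out the numbers ranged over 0 to 4 (induced against uninduced), 0 to 2 (induced against knockout), 1 to 3 (uninduced against wild type), 0 to 1 (induced against wild type) and 1 to 2 (knockout against wild type), and stayed at 0 for uninduced against knockout. With either knockout library left out, the shared spread rests on the A and B pairs alone, which may be technical. miR-1981-5p stayed called thinned in knockout (-3.35, edgeR adjusted p = 0.00895) and in uninduced (-3.71, 0.00793) against wild type.

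Fold changes that changed sign with a library left out ranged, in knockout against wild type, from -0.38 to 0.27 (miR-320-3p); in uninduced against knockout, from -5.89 to 3.65 (miR-877-5p), -0.89 to 1.41 (miR-877-3p) and -1.35 to 0.57 (miR-1981-5p); and in induced against wild type, from -0.062 to 0.57 (miR-320-3p), -0.90 to 0.63 (miR-877-5p), -0.049 to 0.38 (miR-877-3p), -0.53 to 0.063 (miR-1983) and -0.46 to 0.038 (miR-1839-5p).

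Over all tested miRNAs, thinning cut calls to 163 of 274 (knockout against wild type), 67 of 137 (induced against uninduced), 87 of 142 (induced against knockout), 173 of 281 (uninduced against wild type) and 102 of 185 (induced against wild type). Uninduced against knockout, with 0, had 2 without TMM factors, 14 without the filter, 61 without knockout line 1 and 33 without line 2. With a library left out, calls fell to as few as 57 (induced against uninduced, without uninduced A), 70 (induced against knockout, without induced B) and 75 (induced against wild type, without induced B). The median of all tested, without TMM factors, moved to 0.16 (knockout against wild type), -0.17 (induced against uninduced), -0.19 (uninduced against knockout), -0.37 (induced against knockout) and -0.010 (uninduced against wild type). The split of calls became 155 higher and 111 lower (121 and 153 with TMM) in knockout against wild type, 83 and 64 (100 and 37) in induced against uninduced, and 72 and 117 (91 and 51) in induced against knockout.

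The replicate block changed no call of the 5: the numbers called stayed at 1, 2, 0, 2, 2 and 1, and miR-1981-5p in knockout against wild type was -3.96 (edgeR adjusted p = 0.00134). Same-numbered libraries deviated from their group means with r of -0.010 to 0.240, too weak to show or exclude pairing.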
